A study of Homo sapiens with 27 samples.

Results

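The genes described here encode the subunits of the mitochondrial respiratory chain that are made from nuclear DNA. They were chosen by gene symbol, as protein-coding genes of GENCODE named NDUFA, NDUFB, NDUFC, NDUFS or NDUFV with a number, SDHA to SDHD, UQCR, COX4 to COX8, or ATP5F, ATP5M or ATP5P. Assembly factors (NDUFAF) were left out, and the mean FPKM (a level scaled to gene length and library depth) across all libraries had to be over 1. The symbols matched 88 of the 57905 genes in the table, and 80 of those passed the level: 38 in complex I, 4 in complex II, 9 in complex III, 12 in complex IV and 17 in complex V. The member nearest the limit was NDUFA7, at a mean of 1.76 FPKM. Among the 8 genes below it, COX7A1 was highest at 0.233 FPKM. The others were COX4I2, COX6A2, COX6B2, COX7B2, ATP5MGL and the readthrough genes NDUFC2-KCTD14 and ATP5MF-PTCD1.

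The RNA came from U937, an established human myeloid leukemia line, in 3 groups of 3 libraries: control cells, cells after 30 min of matrine and cells after 24 h of matrine. Matrine is a plant alkaloid and was given at 0.8 mg/ml, with ddH2O as its vehicle. Both times were set against the same 3 controls. The culture time of the controls is not named in the sources, so 24 h of matrine and 24 h in culture cannot be told apart. The study's methods speak of independent replicates in general and do not say whether the libraries of a group came from separate cultures, so p-values measure the spread between these libraries, which may be technical.

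The respiratory chain sits in the inner mitochondrial membrane. Complex I takes electrons from NADH and complex II from succinate, complex III passes them to cytochrome c, and complex IV hands them to oxygen, while complexes I, III and IV pump protons. Complex V, the ATP synthase, lets the protons flow back and makes ATP. A few core subunits are encoded in mitochondrial DNA, and the nuclear subunits listed here are translated in the cytosol and imported. Complexes I, III, IV and V are thus put together from the products of both genomes.

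The total count per library lay between 17314931 and 21930018, and the 80 subunit genes took between 0.939% and 1.17% of it. Of 8 myeloid markers, 7 had a mean over 1 FPKM (MPO had 0.847), and their summed level was 485.04 to 506.85 FPKM in the control and 30 min libraries and 573.81 to 581.21 FPKM at 24 h. Erythroid (5), T cell (3) and epithelial (3) markers all stayed below 1 FPKM, with the T cell genes at 0. The B cell gene CD79A was low, at 1.93 FPKM, and MS4A1 was at 0. The myeloid sum was higher at 24 h, the time at which the subunits changed, but its genes moved in both directions. The mean of FCER1G went from 47.8 FPKM in the control to 162 at 24 h, with CD4 and ITGAL also higher, while LYZ went from 292 to 244, SPI1 from 67.6 to 56.0 and CEBPA from 41.0 to 32.9 FPKM. Their part in the results was not tested. FPKM and counts are shares of the sequenced RNA, so a change in total RNA per cell would not be seen, and in bulk RNA fewer cells carrying a transcript and less of it per cell cannot be told apart.

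The promoters of the subunit genes that fell most at 24 h and that have an entry in the RefSeq promoter table (build GRCh38.p14) are shown because members that moved together can be compared there. Each runs from 200 bases before the start of transcription to 30 bases after it, 5′ to 3′ on the strand of the gene, with motif matches in capitals. ATP5MC1 lies at chr17:48892587-48892816 on the plus strand, NDUFB10 at chr16:1959338-1959567 (plus), NDUFV2 at chr18:9102499-9102728 (plus) and NDUFA5 at chr7:123557789-123558018 (minus).
ATP5MC1: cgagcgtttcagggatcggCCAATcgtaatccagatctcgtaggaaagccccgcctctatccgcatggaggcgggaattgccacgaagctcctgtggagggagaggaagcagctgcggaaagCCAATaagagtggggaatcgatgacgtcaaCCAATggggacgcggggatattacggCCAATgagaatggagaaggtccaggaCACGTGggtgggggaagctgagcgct
NDUFB10: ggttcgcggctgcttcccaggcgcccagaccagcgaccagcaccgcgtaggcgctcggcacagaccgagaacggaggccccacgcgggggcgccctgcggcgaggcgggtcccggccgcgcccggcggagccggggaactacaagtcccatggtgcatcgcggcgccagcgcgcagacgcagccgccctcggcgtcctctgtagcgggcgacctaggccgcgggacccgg
NDUFV2: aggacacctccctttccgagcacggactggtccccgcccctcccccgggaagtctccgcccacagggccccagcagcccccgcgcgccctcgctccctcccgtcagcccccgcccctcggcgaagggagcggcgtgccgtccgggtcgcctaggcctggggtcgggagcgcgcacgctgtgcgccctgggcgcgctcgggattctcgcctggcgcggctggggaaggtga
NDUFA5: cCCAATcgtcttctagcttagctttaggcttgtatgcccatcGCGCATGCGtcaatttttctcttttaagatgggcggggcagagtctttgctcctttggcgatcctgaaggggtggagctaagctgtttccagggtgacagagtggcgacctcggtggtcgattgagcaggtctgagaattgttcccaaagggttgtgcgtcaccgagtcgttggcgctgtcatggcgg
The motifs searched on both strands were NRF1 (GCGCATGCG), ETS (ACTTCCGG), YY1 (AAGATGGCG), the E-box (CACGTG) and the CCAAT box (CCAAT), and no match of one overlapped another in these windows. In ATP5MC1 the capitals mark 4 CCAAT boxes, whose first bases lie at -181, -78, -48 and -22 from the start, and an E-box at 5. In NDUFA5 they mark a CCAAT box at -199 and an NRF1 word at -158. The letters of none of the 5 motifs are in the printed windows of NDUFB10 and NDUFV2.

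Over the full windows of 250 bases before to 50 after the start, 65 of the 80 members had an entry. The NRF1 word was in 10 of the 65 (15.4%), against 4.21% of 8180 expressed protein-coding genes and 2.12% of all 27305 genes with a window. The YY1 word was in 8 (12.3%, against 4.66% and 1.86%), the ETS word in 10 (15.4%, against 10.3% and 4.42%), the E-box in 7 (10.8%, against 10.9% and 7.42%) and the CCAAT box in 21 (32.3%, against 37.3% and 35.7%). The shares of members with the NRF1, YY1 or ETS word were thus above those of expressed genes. The shares with the E-box or the CCAAT box were close to them or below them. None of this was tested. At 24 h the 10 members with the NRF1 word had a median log2 fold change of -0.24, against -0.20 in the 55 without it. The 7 with an E-box had a median of -0.40, against -0.19 in the other 58. For the ETS word the medians were -0.28 with it and -0.20 without it. They were -0.19 and -0.20 for the YY1 word, and -0.19 and -0.22 for the CCAAT box. These are descriptions of few genes, and a match is not evidence of binding.

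After 30 min of matrine, no respiratory chain subunit was called changed. A call needed a fold change of at least 1.5 and an edgeR p below 0.05 after Benjamini-Hochberg adjustment over all 11587 genes tested. Of all tested genes, 0.544% were called lower and 0.0949% higher at this time, and 1.33% were lower and 0.293% higher by adjusted p alone. At an unadjusted p below 0.05, edgeR gave 14 of the 80 members, 13 of them higher, while DESeq2 gave 17 and limma on log2(FPKM + 0.1) gave 13. The shares of all genes at this level were 11.1%, 10.3% and 11.4%, and with edgeR they were 439 higher and 845 lower genes. Each of the 3 tools gave 0 members at an adjusted p below 0.05. The log2 fold changes lay between -0.16 and 0.20, and 72 of the 80 were above 0, against 48.5% of all genes tested. Their median was 0.07, against -0.004 over all genes tested. The median was 0.14 without control replicate 2, the control library with the highest subunit level, 0.12 without 30 min replicate 2, and 0.05 without 30 min replicate 1 or without control replicate 3.

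ATP5F1B, the catalytic beta subunit of the ATP synthase, was among the 8 members for which all 30 min libraries lay above all controls, an order found in 4.89% of all genes. Its levels were 405.83, 424.19 and 411.48 FPKM in the control and 444.31, 426.02 and 431.38 FPKM at 30 min. The groups were separate but close, and the log2 fold change was 0.08 (standard error 0.050, edgeR adjusted p = 0.60). The same order was seen for NDUFA2, NDUFA4, NDUFS4, UQCRH, UQCRHL, UQCRQ and ATP5ME, with log2 fold changes between 0.11 (NDUFA4) and 0.20 (NDUFS4). NDUFV3, an accessory subunit beside the NADH-binding site, was the 1 member with all 30 min libraries below all controls (8.91% of all genes). Its levels were 7.48, 7.37 and 7.57 FPKM in the control and 6.84, 6.5 and 6.69 FPKM at 30 min. Across the 80 genes the 30 min change had a Spearman correlation of 0.46 with the mean FPKM and of -0.40 with the gene length implied by count and FPKM. Those points share the same 6 libraries, and no test was made.

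After 24 h the subunits as a group were lower, by modest amounts. By adjusted p alone (below 0.05, edgeR, 12035 genes tested), 46 of the 80 fell (57.5%), against 31.8% of all genes, 4 rose, against 31.5% of all genes, and 30 passed in neither direction. The 46 fell by 1.10-fold to 1.83-fold, with a median of 1.27-fold. With the fold threshold of 1.5 as well, 5 were called lower, a share of 6.25% against 11.2% of all genes, and 1 was called higher, against 15.1% of all genes. The share of members that fell was above that of all genes, the share that rose was below it, and the shares called lower or higher at 1.5-fold were both below it, a description that was not tested. The median log2 fold change was -0.20, against 0.01 over all genes, and 19 of the 80 values were above 0, against 50.6% of all genes. All 24 h libraries lay below all controls for 46 members (31.0% of all genes) and above them for 10 (38.7% of all genes). The smallest p that an exact two-sided permutation test of 3 against 3 libraries allows is 0.1, so the calls rest on the edgeR fit. Without control replicate 2, 40 fell and 3 were called lower, since NDUFB10 and NDUFV2 then stayed just under 1.5-fold. The 4 that rose became 1 without control replicate 1 and 2 without control replicate 3 or 24 h replicate 3.

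**Figure D1:**
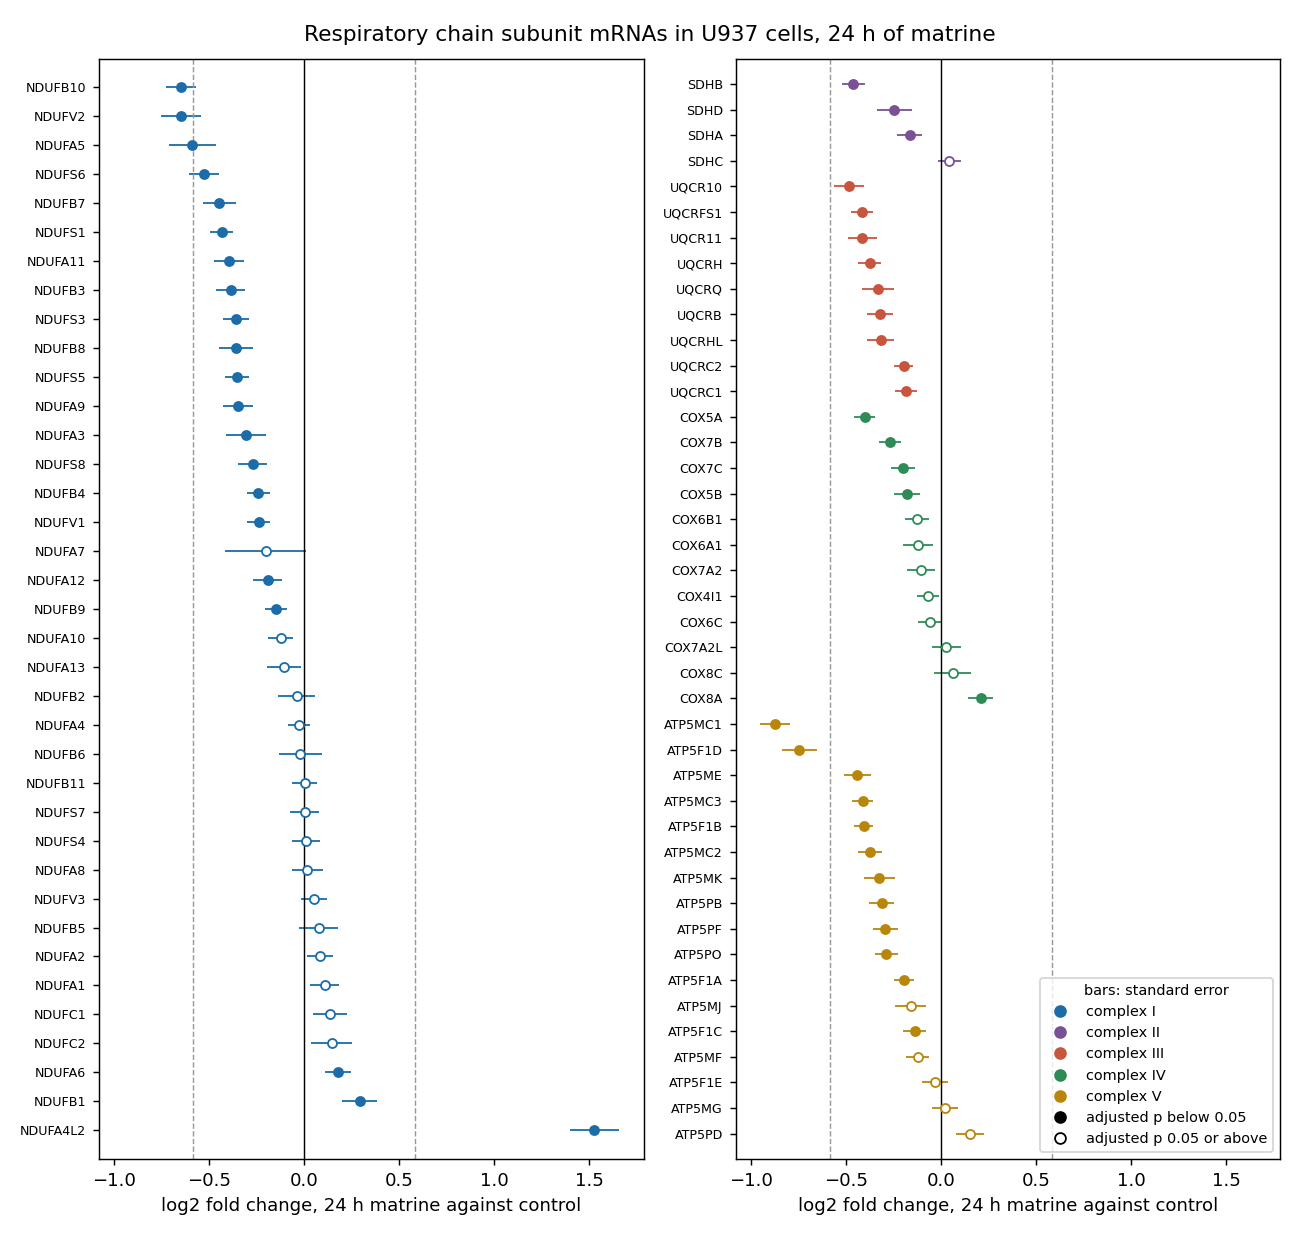
Log2 fold change of 79 of the 80 subunit mRNAs at 24 h of matrine against control (horizontal axis, from edgeR, bars are the standard error), grouped by complex and sorted; filled points have an adjusted p below 0.05 and the dashed lines mark 1.5-fold. Most points lie left of 0, all 9 of complex III among them, while NDUFA4L2 stands alone far to the right at 1.53.

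Complex I begins with its core, the subunits shared with the bacterial enzyme that carry the flavin, the iron-sulfur clusters and the ubiquinone site. Of the 7 nuclear core subunits, 5 fell at 24 h and none rose, with a median log2 fold change of -0.27. NDUFV2 (chr18:9102630-9134345), which holds an iron-sulfur cluster beside the flavin, changed most. Its levels were 6.83, 7.75 and 6.54 FPKM in the control, 7.57, 7.20 and 6.54 FPKM at 30 min, and 4.25, 5.05 and 4.64 FPKM at 24 h. Every 24 h library lay below every other library, while the control and 30 min libraries overlapped. The log2 fold change at 24 h was -0.65 (standard error 0.106, edgeR adjusted p = 1.9e-05), or 1.57-fold lower, and -0.58 without control replicate 2 or 24 h replicate 1. A pseudogene of NDUFV2 took 5.19% of the counts of the gene and its copy, so some reads may have been split between them.

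NDUFS1, the largest core subunit and a carrier of several iron-sulfur clusters, had 11.21, 10.30 and 11.52 FPKM in the control and 8.40, 8.12 and 8.74 FPKM at 24 h. The groups did not overlap, and it fell by 0.43 on the log2 scale (standard error 0.060, edgeR adjusted p = 2.3e-06). NDUFS3, which forms the arm towards the ubiquinone site, went from 28.43, 31.99 and 27.90 FPKM to 23.04, 24.78 and 23.40 FPKM, and it fell by 0.36. NDUFV1, the subunit that binds NADH and the flavin, went from 45.75, 48.18 and 43.91 FPKM to 40.28, 40.50 and 39.93 FPKM. All 24 h values were again the lower ones, and it fell by 0.24. NDUFS8, with a pair of iron-sulfur clusters, fell by 0.27. NDUFS7, which holds the iron-sulfur cluster next to the ubiquinone site, did not pass. It had 14.29, 17.52 and 14.17 FPKM in the control and 15.24, 16.18 and 16.30 FPKM at 24 h, so its 24 h values lay inside the control range, and the log2 fold change was 0.004 (standard error 0.076).

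Accessory subunits surround the core and stabilise it. The 31 other genes placed in complex I by symbol include NDUFA4 and its paralogue NDUFA4L2. They were divided: 13 fell, 3 rose (NDUFA4L2 among them) and 15 passed in neither direction, with a median of -0.11. NDUFB10 (chr16:1959538-1961975), an accessory subunit of the membrane arm, had the lowest value of the complex. Its levels were 66.20, 80.64 and 71.63 FPKM in the control, 81.40, 72.64 and 80.35 FPKM at 30 min, and 46.90, 48.23 and 48.98 FPKM at 24 h. The 24 h libraries were tightly grouped below all others. Its log2 fold change was -0.65 (standard error 0.078, edgeR adjusted p = 3.4e-07), and -0.58 without control replicate 2, its highest control. NDUFA5 (chr7:123536997-123557904), an accessory subunit of the matrix arm, was near the low end of the levels. It had 4.63, 4.01 and 4.18 FPKM in the control, 4.12, 5.02 and 2.97 FPKM at 30 min, and 3.14, 2.85 and 2.82 FPKM at 24 h. The 24 h values lay below all controls, but the lowest 30 min library lay among them. The log2 fold change was -0.59 (standard error 0.124, edgeR adjusted p = 3.0e-04), just past 1.5-fold. It fell short of that fold without control replicate 1 (-0.54), 24 h replicate 2 (-0.56) or 24 h replicate 3 (-0.58), when libraries were scaled by their totals alone (-0.54), with the level set over all 9 libraries (-0.58), and with limma on log2(FPKM + 0.1) (-0.53) or log2(FPKM + 1) (-0.42).

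NDUFS6, a zinc-binding subunit needed late in assembly, had 49.35, 63.09 and 55.01 FPKM in the control and 39.38, 41.35 and 39.46 FPKM at 24 h. It fell by 0.53 on the log2 scale (standard error 0.078, edgeR adjusted p = 5.8e-06), under the fold threshold. NDUFS5, an accessory subunit on the side of the intermembrane space, was the most abundant member of the list per length. It had 454.27, 500.99 and 465.93 FPKM in the control, 538.79, 472.29 and 504.99 FPKM at 30 min, and 376.14, 379.37 and 395.13 FPKM at 24 h. Only the 24 h libraries stood apart, and it fell by 0.35. The other 9 accessory subunits that fell were NDUFA3, NDUFA9, NDUFA11, NDUFA12, NDUFB3, NDUFB4, NDUFB7, NDUFB8 and NDUFB9, with log2 fold changes between -0.45 (NDUFB7) and -0.15 (NDUFB9).

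NDUFA4L2 (chr12:57234903-57240715), a paralogue of NDUFA4 best known as a gene induced in low oxygen, was the member that rose most. It had 1.47, 1.44 and 1.56 FPKM in the control, 1.69, 1.44 and 1.66 FPKM at 30 min, and 4.28, 4.53 and 4.50 FPKM at 24 h. Control and 30 min libraries overlapped, and all 24 h libraries were far above both. The log2 fold change at 24 h was 1.53 (standard error 0.130, edgeR adjusted p = 2.0e-09), or 2.88-fold. Its exons overlap those of SHMT2 on the other strand, and the strand setting of the counting is not given in the sources. SHMT2 moved the other way, from 79.28, 81.42 and 77.10 FPKM to 68.83, 70.06 and 73.22 FPKM. NDUFA4 itself, which is now placed in complex IV although its name keeps it here, had 34.00, 34.57 and 33.05 FPKM in the control and 33.12, 34.88 and 35.00 FPKM at 24 h. These overlapped, with a log2 fold change of -0.03 (standard error 0.058). Of the summed FPKM of the pair, NDUFA4L2 made up 4.22% ± 0.262 (SD, n = 3) in the control and 11.4% ± 0.051 (SD, n = 3) at 24 h.

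NDUFB1 and NDUFA6, accessory subunits of the membrane and matrix arms, also rose. NDUFB1 went from 8.39, 9.26 and 8.70 FPKM to 11.61, 11.35 and 10.44 FPKM, a log2 fold change of 0.29 (standard error 0.093, edgeR adjusted p = 0.0091). NDUFA6 went from 47.03, 52.91 and 45.88 FPKM to 58.81, 55.03 and 56.76 FPKM, a log2 fold change of 0.18 (standard error 0.070, edgeR adjusted p = 0.032). In both genes every 24 h library was above every control.

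Complex II, or succinate dehydrogenase, is also an enzyme of the TCA cycle and has all its subunits encoded in the nucleus. SDHB, the iron-sulfur subunit, fell most, from 63.96, 68.08 and 64.84 FPKM in the control to 48.73, 47.88 and 51.23 FPKM at 24 h, with 69.90, 64.03 and 65.62 FPKM at 30 min. The 24 h libraries were clearly separate from both other groups. The log2 fold change was -0.46 (standard error 0.060, edgeR adjusted p = 1.1e-06). SDHA, the flavoprotein, went from 15.65, 16.87 and 15.43 FPKM to 14.83, 14.40 and 14.96 FPKM, and it fell by 0.17 (edgeR adjusted p = 0.037). It did not pass in 7 of 19 other analyses. SDHD, a membrane anchor, went from 25.02, 25.16 and 25.05 FPKM to 21.79, 21.18 and 22.60 FPKM, and it fell by 0.25 (edgeR adjusted p = 0.023). It did not pass in 6 of the 19. SDHC, the other anchor, did not follow: it had 43.74, 47.05 and 43.70 FPKM in the control and 46.93, 49.61 and 46.86 FPKM at 24 h, which is 0.04 on the log2 scale (standard error 0.061). Pseudogenes took 15.3% of the counts of SDHA and its copies and 19.6% of those of SDHD and its copies, which limits the values of both.

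Complex III was the complex in which every member fell: 9 of 9, all with 24 h libraries below all controls, and a median log2 fold change of -0.33. UQCRFS1, the Rieske iron-sulfur protein of the catalytic site, had 177.48, 186.43 and 165.90 FPKM in the control and 133.99, 136.84 and 140.06 FPKM at 24 h. With 185.80, 178.07 and 176.03 FPKM at 30 min, only the 24 h group was lower. Its log2 fold change was -0.42 (standard error 0.058, edgeR adjusted p = 2.8e-06). UQCR10, a small subunit next to the Rieske protein, went from 59.33, 65.46 and 64.33 FPKM to 47.37, 44.77 and 47.60 FPKM and had the lowest value, -0.48 (standard error 0.079, edgeR adjusted p = 1.9e-05). UQCRC1, a core protein of the matrix side, went from 146.28, 156.95 and 141.33 FPKM to 133.62, 132.48 and 138.27 FPKM and had the highest value, -0.19 (standard error 0.058, edgeR adjusted p = 0.0088). UQCRH, the hinge protein, fell by 0.38, and its near-copy UQCRHL fell by 0.32. UQCRHL held 43.7% of the pair's summed FPKM in the control, and since reads could be placed on either gene, the split between them is uncertain. UQCRB, UQCRC2, UQCRQ and UQCR11 lay between -0.41 and -0.20.

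Complex IV, cytochrome c oxidase, had the median nearest 0, at -0.11, with 4 of 12 members lower, 1 higher and 7 passing in neither direction. COX5A, which sits over the matrix face of the enzyme, fell most, from 197.97, 215.03 and 201.09 FPKM to 156.12, 163.31 and 161.21 FPKM. The groups were far apart, and the log2 fold change was -0.40 (standard error 0.056, edgeR adjusted p = 2.3e-06). COX7B fell by 0.27, COX7C by 0.20 and COX5B by 0.18. COX8A, a small subunit and the most abundant of the complex per length, rose. It had 305.40, 342.50 and 297.08 FPKM in the control, 351.40, 312.93 and 342.52 FPKM at 30 min, and 370.94, 364.24 and 393.59 FPKM at 24 h. Every 24 h library was above every other library, and the log2 fold change against control was 0.21 (standard error 0.068, edgeR adjusted p = 0.011). COX8A did not pass in 4 of 19 other analyses.

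Complex IV is also the complex with tissue-restricted isoforms, and U937 cells expressed mainly the ubiquitous form of each. COX4I1 had 66.3 ± 4.31 FPKM in the control and 65.3 ± 0.949 FPKM at 24 h (SD, n = 3), while COX4I2, the lung form, had 13 counts over the 9 libraries. COX6A1 had 87.9 ± 7.95 and 83.5 ± 8.14 FPKM, against 2 counts for the muscle form COX6A2. COX6B1 had 171 ± 8.31 and 162 ± 2.15 FPKM, against 15 counts for COX6B2. COX7B2 had 0 counts in every library. For the COX7A family, COX7A2 held 64.6% of the summed FPKM in the control and 62.2% at 24 h, COX7A2L, which helps join complexes III and IV, held 35.2% and 37.1%, and the muscle form COX7A1 had 44 counts in all. None of COX4I1, COX6A1, COX6B1, COX7A2 and COX7A2L passed the test at 24 h, with log2 fold changes between -0.13 and 0.03. COX8C, a form best known from testis, was listed at 28.60, 31.87 and 31.64 FPKM in the control and 32.87, 32.52 and 33.83 FPKM at 24 h. It did not pass at 24 h, with a log2 fold change of 0.06 (edgeR adjusted p = 0.61). COX8C lies within the gene UNC79 and rests on 3189 counts, 8.90% of the FPKM of the COX8 pair in the control and 8.08% at 24 h. The mean of UNC79 was 1.59 FPKM in the control and 2.4 FPKM at 24 h, and it rose by 0.55 (edgeR adjusted p = 4.8e-05). The part of UNC79 in the COX8C reads was not tested.

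Complex V held the largest decreases. Of its 17 members 12 fell, none rose, and the median log2 fold change was -0.29. In the catalytic head, where ATP is made, 4 of 5 fell. ATP5F1D (chr19:1241746-1244825), the delta subunit of the central stalk, had 47.53, 63.85 and 51.19 FPKM in the control, 53.93, 52.20 and 58.21 FPKM at 30 min, and 30.81, 33.57 and 35.90 FPKM at 24 h. All 24 h libraries were below all others, although the controls were spread. The log2 fold change was -0.75 (standard error 0.092, edgeR adjusted p = 4.4e-07), or 1.68-fold lower. ATP5F1B went from the control levels given above to 314.50, 319.93 and 333.78 FPKM, and it fell by 0.41 (standard error 0.051, edgeR adjusted p = 5.6e-07). ATP5F1A, the alpha subunit, went from 82.92, 87.56 and 85.16 FPKM to 76.50, 75.02 and 78.98 FPKM, and it fell by 0.20 (standard error 0.052, edgeR adjusted p = 0.0025). So the paired alpha and beta subunits both fell, by different amounts whose difference was not tested. ATP5F1C, the gamma subunit of the rotor shaft, fell by 0.14 (edgeR adjusted p = 0.043), but did not pass in 11 of 19 other analyses. ATP5F1E, the epsilon subunit, did not pass, at -0.03 (standard error 0.067).

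The ring that turns in the membrane is built from subunit c, which is encoded by ATP5MC1, ATP5MC2 and ATP5MC3; the mature proteins are the same and differ only in the cleaved import sequence. ATP5MC1 (chr17:48892765-48895871) had the lowest value of all members. Its levels were 33.47, 38.27 and 30.01 FPKM in the control, 33.39, 33.31 and 32.91 FPKM at 30 min, and 18.89, 19.17 and 19.43 FPKM at 24 h. The 24 h libraries were tightly grouped and far below the rest, with a log2 fold change of -0.87 (standard error 0.078, edgeR adjusted p = 4.5e-09), or 1.83-fold. ATP5MC2 went from 47.01, 53.59 and 48.85 FPKM to 38.56, 39.28 and 41.32 FPKM, a log2 fold change of -0.37 (standard error 0.064, edgeR adjusted p = 3.2e-05). ATP5MC3 went from 81.31, 90.05 and 83.48 FPKM to 64.46, 65.55 and 67.94 FPKM, a log2 fold change of -0.41 (standard error 0.056, edgeR adjusted p = 1.9e-06). All of the family fell, and the summed FPKM went from 169 ± 11.5 to 124.9 ± 3.47 (SD, n = 3). ATP5MC1 made up 20.1% ± 1.38 of that sum in the control, 19.1% ± 0.355 at 30 min and 15.4% ± 0.22 at 24 h (SD, n = 3), with every 24 h share below every other.

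**Figure D2:**
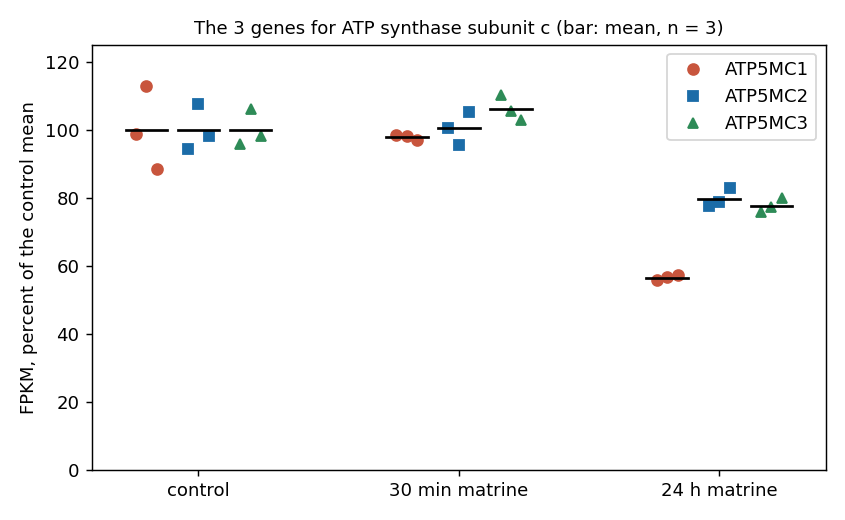
FPKM of ATP5MC1, ATP5MC2 and ATP5MC3 in each library as a percent of the gene's control mean (vertical axis) in the control, 30 min and 24 h groups; bars are means of 3 libraries. At 24 h the ATP5MC1 points lie below those of the other genes of the family, and at 30 min all lie near the control.

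The remaining members of complex V form the side stalk and the membrane part. ATP5ME, a membrane subunit at the dimer interface, went from 63.48, 69.54 and 66.60 FPKM to 48.67, 52.18 and 51.08 FPKM, after 79.36, 71.55 and 73.68 FPKM at 30 min. It was thus highest at 30 min and lowest at 24 h, and its log2 fold change at 24 h against control was -0.44 (standard error 0.071, edgeR adjusted p = 1.5e-05). ATP5MK, ATP5PB, ATP5PF and ATP5PO fell by 0.29 to 0.32 on the log2 scale. ATP5MF, ATP5MG, ATP5MJ and ATP5PD did not pass. ATP5PD, a side stalk subunit, had the highest log2 fold change of the complex and its lowest level. It had 18.78, 20.02 and 19.72 FPKM in the control and 21.06, 22.81 and 23.40 FPKM at 24 h. Its 24 h libraries lay above the controls, but the log2 fold change of 0.15 (standard error 0.074) had an edgeR adjusted p of 0.077, and it passed in 7 of 19 other analyses.

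Summed over each complex, the subunit FPKM at 24 h was 88.3% of the control mean in complex I, 88.2% in complex II, 82.3% in complex III, 98.5% in complex IV and 82.5% in complex V. The sums at 24 h lay below all controls in complexes I, II, III and V. In complex IV they overlapped the controls: the control sums were 1154.77, 1278.32 and 1164.01 FPKM and those at 24 h were 1159.42, 1166.71 and 1215.48 FPKM. COX8A carries much of that sum and rose. In CPM, counts scaled to the library total and its TMM normalization factor, complex IV stood at 92.1% of control. CPM also weight long genes more, and the parts of scaling and gene length in this difference were not separated. Over all 80 members the sum was 4920.03, 5400.73 and 4943.44 FPKM in the control, 5585.07, 5214.39 and 5332.39 FPKM at 30 min, and 4418.46, 4465.86 and 4592.00 FPKM at 24 h. Control replicate 2 was the high control in every complex.

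**Figure D3:**
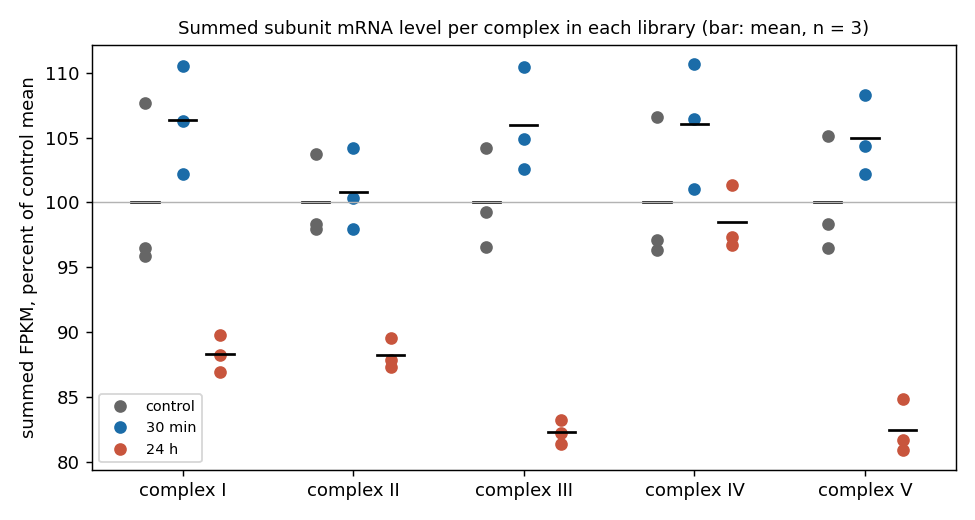
Summed FPKM of the subunits of each complex in each library, as a percent of the control mean (vertical axis, which does not start at 0), for the control, 30 min and 24 h groups; bars are means of 3 libraries. The 24 h points lie below all others except in complex IV, where they fall between 96.7% and 101% of the control mean.

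The times were also compared directly, and that comparison shares the 24 h libraries with the one against control. From 30 min to 24 h, 58 of the 80 members fell by adjusted p alone, against 32.6% of the 11981 genes tested, and 3 rose (NDUFV3, NDUFB1 and NDUFA4L2), against 32.5% of all genes. With the 1.5-fold threshold 7 were called lower (11.5% of all genes) and 1 higher (15.4% of all genes). The median log2 fold change was -0.30, against 0.01 over all genes, and 10 of the 80 values were above 0 (51.0% of all genes). All 46 members that fell against control also fell against 30 min, a number that is not independent since the 24 h libraries are shared. By complex, 23 of 38 members fell in complex I, 3 of 4 in complex II, 9 of 9 in complex III, 8 of 12 in complex IV and 15 of 17 in complex V.

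**Figure D4:**
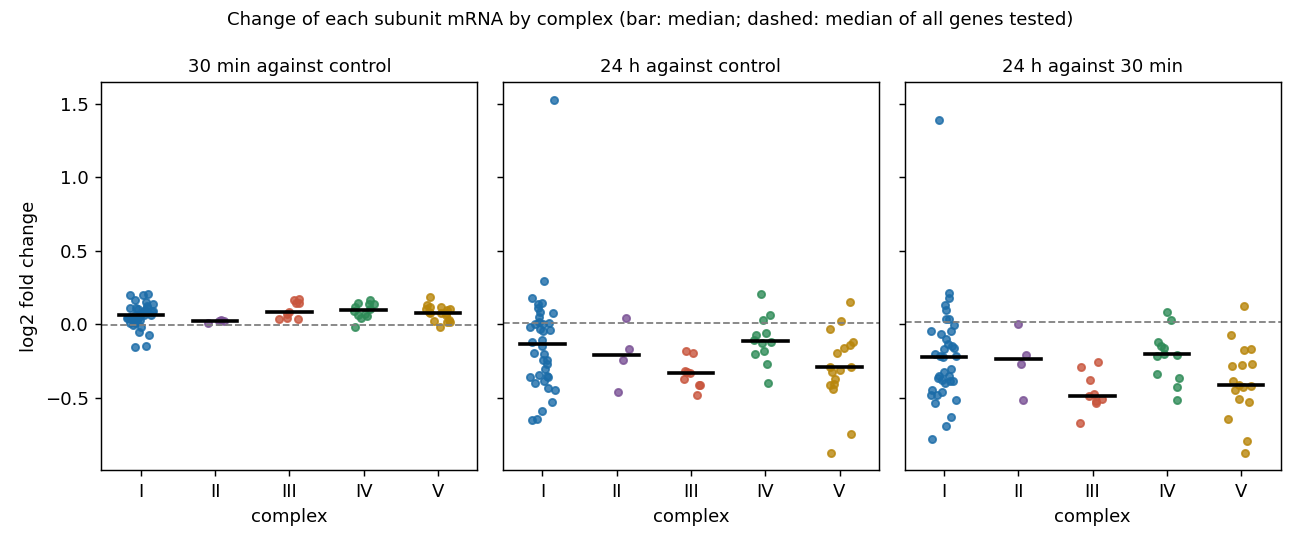
Log2 fold change of each subunit mRNA (points) by complex in the 3 comparisons; thick bars are the median of each complex and the dashed line the median of all genes tested. Medians lie slightly above the line at 30 min and below it in all complexes at 24 h, lowest in complex III against 30 min at -0.49.

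Of the 7 called lower, ATP5MC1, ATP5F1D, NDUFB10 and NDUFV2 were also called against control. The other 3 were NDUFS6, UQCR10 and ATP5ME. UQCR10 had 77.54, 63.59 and 69.17 FPKM at 30 min against the 24 h levels given above, and it fell by 0.67 (standard error 0.078, edgeR adjusted p = 2.2e-07). NDUFS6 had 58.74, 58.06 and 59.42 FPKM at 30 min, and it fell by 0.63 (standard error 0.078, edgeR adjusted p = 4.4e-07). ATP5ME fell by 0.64 (standard error 0.070, edgeR adjusted p = 7.7e-08). All 24 h libraries lay below all 30 min libraries for 49 of the 80 members (28.6% of all genes), these 7 among them, and above them for 9 (39.9% of all genes). NDUFV3 went the other way, to 8.25, 8.20 and 7.58 FPKM at 24 h, a log2 fold change of 0.18 against 30 min (standard error 0.068, edgeR adjusted p = 0.023).

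**Figure D5:**
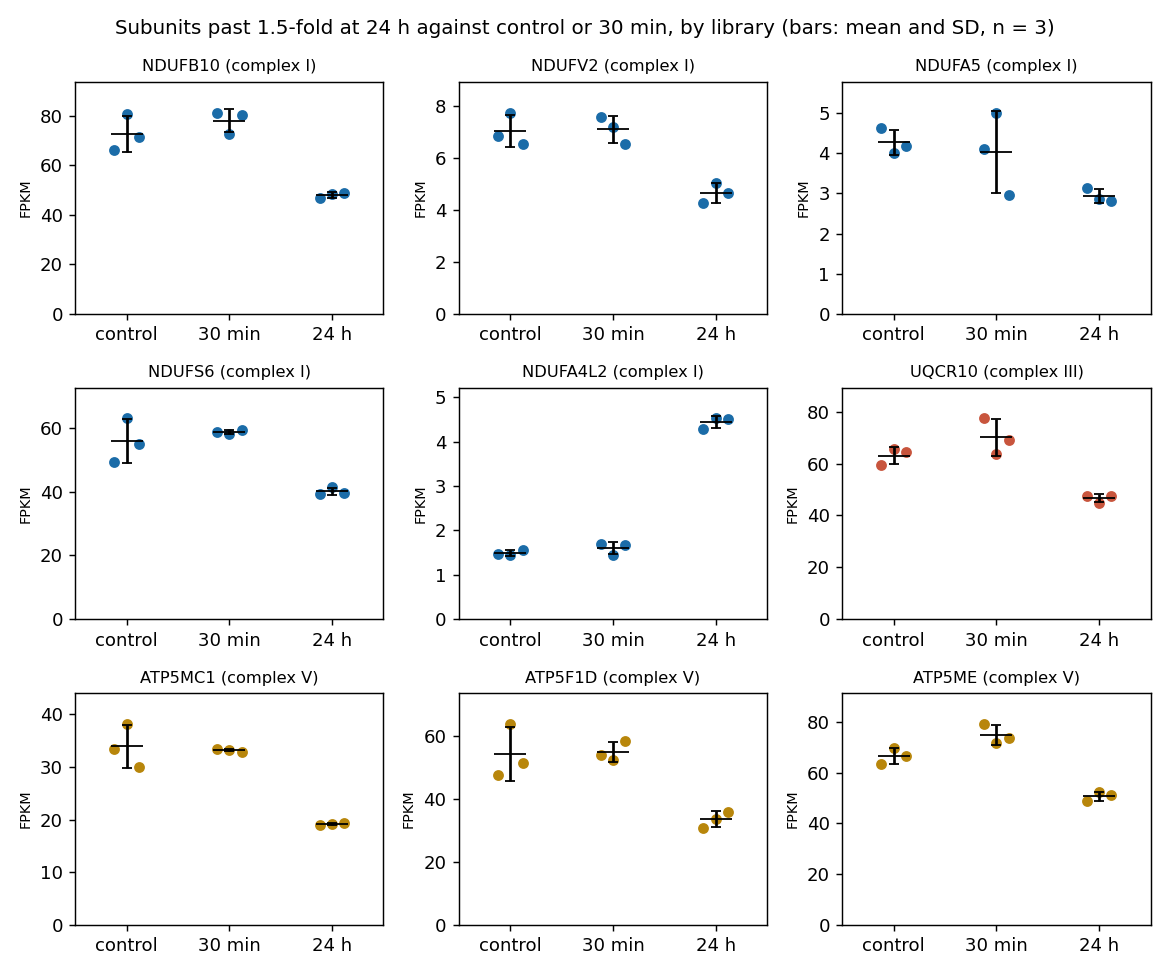
FPKM in each library (points) of the 9 subunit genes past 1.5-fold at 24 h against control or against 30 min; horizontal bars are the mean and vertical bars the SD of 3 libraries, and each vertical axis starts at 0. In 8 panels the 24 h mean is the lowest of the groups, and in NDUFA4L2 it is the highest.

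The 13 subunits encoded in mitochondrial DNA, which form the other part of complexes I, III, IV and V, were all tested and none was called at 24 h by edgeR at 1.5-fold. By adjusted p alone 6 fell, against 31.8% of all genes, none rose, against 31.5% of all genes, and the median log2 fold change was -0.13. The shares of all genes called at 1.5-fold were 11.2% lower and 15.1% higher. The 6 were MT-ND1, MT-ND2, MT-ND4L, MT-ND5, MT-ATP6 and MT-ATP8. MT-ATP6, a complex V subunit, had 2710.82, 2724.07 and 2533.78 FPKM in the control and 2233.37, 2290.57 and 2227.34 FPKM at 24 h, and it fell by 0.29 (standard error 0.052, edgeR adjusted p = 5.8e-05). The complex IV genes MT-CO1, MT-CO2 and MT-CO3 lay between -0.03 and 0.05 and did not pass, and neither did MT-CYB of complex III, at -0.03 (standard error 0.051). So the nuclear members of complex III fell together while the mitochondrial one did not pass the test. Cytochrome c (CYCS), the carrier between complexes III and IV, fell by 0.60 on the log2 scale and was called, and CYC1, a complex III subunit whose symbol the rule does not take, fell by 0.44. ATP5IF1, which inhibits the ATP synthase, fell by 0.20.

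Genes listed as assembly factors, which serve the making of the complexes but are not part of them, had a lower median than the subunits. Of 50 tested, 34 fell by adjusted p alone and 4 rose, the median log2 fold change was -0.36, and 11 were called lower and 1 higher. Among all genes tested at 24 h, 31.8% fell, 31.5% rose, 11.2% were called lower and 15.1% higher. For complex I, 14 of 16 fell, and NDUFAF4 (-1.06), NDUFAF8 (-0.95), NUBPL (-0.82) and NDUFAF7 (-0.62) were called. For complex II, 3 of 4 fell and SDHAF3 (-0.65) was called. For complex III, 4 of 6 fell, 1 rose, and LYRM7 (-0.80) and UQCC1 (-0.60) were called. For complex IV, 12 of 20 fell and 2 rose, with SCO1 (-1.03), LRPPRC (-0.89), COA7 (-0.78) and COA4 (-0.76) called lower and SURF1 (0.68) called higher. For complex V, 1 of 4 fell and 1 rose, with none called by edgeR. Whether assembly factors and subunits differ in their changes was not tested.

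Of 13 regulators of respiratory gene transcription, 12 were tested, 10 fell and 7 were called lower at 24 h. Among all genes 31.8% fell and 11.2% were called lower. The 7 were MYC (-2.29), TFB2M (-1.07), TFB1M (-1.01), POLRMT (-0.82), TFAM (-0.82), PPARGC1B (-0.77) and PPRC1 (-0.71). TFAM, TFB2M and POLRMT transcribe mitochondrial DNA, and TFB1M modifies the RNA of the mitochondrial ribosome. NRF1 and GABPA, transcription factors of many nuclear subunit genes, did not pass, at -0.07 (standard error 0.080) and -0.04 (standard error 0.088). YY1 fell by 0.33. PPARGC1A, below the level for testing, was at 0.67, 0.73 and 0.74 FPKM in the control and 1.23, 1.22 and 1.05 FPKM at 24 h. At 30 min MYC was the 1 regulator called, at -1.93, when no subunit was called. Of 13 TCA cycle enzymes 9 fell and 1 rose at 24 h, against 31.8% and 31.5% of all genes, with SUCLG2 (-0.82) and IDH3A (-0.65) called.

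Several values have limits from gene copies and overlaps. Of the 80 members, 49 have at least 1 pseudogene in the table, and for 6 of them pseudogenes took over 1% of the counts: SDHD, SDHA, NDUFV2, UQCRFS1, NDUFA5 and COX6A1. Exons of 44 members overlap those of another gene on either strand. The gene lengths implied by count and FPKM ran from 507 to 12269 bases, so the FPKM of a gene with long annotated exons is low for its count, and levels are compared between genes per length only.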

How the data were processed

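RNA was measured by paired-end RNA-seq in 9 U937 libraries, and the other cell lines of the study were not used. The authors mapped the reads with HISAT2 and counted them per gene with HTSeq. The submitters' processing notes name cutadapt 1.9.1, HISAT2 2.0.1 and HTSeq 0.6.1. The notes give GRCh37 and the paper's methods hg38 as the genome build; the table holds no coordinates, so those printed are of GENCODE 44 (GRCh38) and RefSeq (GRCh38.p14). Strand setting, gene annotation release and treatment of reads with several matches are not given in the sources used here. The deposited values are unnormalized counts and FPKM made by the authors. Of 57905 Ensembl identifiers, 51996 had a GENCODE symbol.

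The deposited counts were tested with edgeR 4.0.16 (R 4.3.3) by the quasi-likelihood test, with TMM normalization, full library totals and all 9 libraries in a single fit. A gene was tested where its FPKM averaged above 1 in the 6 libraries compared, with Benjamini-Hochberg adjustment over all genes tested. "Fell" and "rose" mean an adjusted p below 0.05, and "called" means a fold change of at least 1.5 as well. Standard errors were the size of the log2 fold change divided by the square root of F, and the scripts were first tested on simulated data. DESeq2 1.42.0, limma 3.58.1 on log2(FPKM + 0.1) and log2(FPKM + 1), other scalings, filters, folds, a replicate block and each library left out were alternatives. Replicate libraries differed beyond sampling noise and all were kept. Promoter windows are the RefSeq window nearest the GENCODE start of each gene. The distance was largest for COX7A2L (56131 bases), NDUFS3 (13738), NDUFV3 (13665), ATP5MJ (6740) and NDUFB2 (5931). These windows were kept in the motif shares and medians and may not cover the start used in U937. Genes named with values were those called in any comparison, the lowest, highest and most abundant of each complex, catalytic subunits and paralogue sets. NDUFB1, NDUFA6, NDUFV3, SHMT2 and UNC79 were named after their values were seen. So were the uncalled genes of other lists and the lists of members that passed without a call. The members and all gene lists were chosen with earlier results of these data known. Protein sequences are not used here, and some genes are counted in the totals but not reported here.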

Additional observations from a re-analysis of the deposited data

Results flagged for a closer look

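The change at 24 h differed from that at 30 min, by edgeR's test of 24 h against 30 min with an adjusted p below 0.05 and at least 1.5-fold, in 8 subunit genes. The log2 differences were -0.873 for ATP5MC1, -0.792 for ATP5F1D, -0.782 for NDUFB10, -0.692 for NDUFV2, -0.671 for UQCR10, -0.644 for ATP5ME, -0.632 for NDUFS6 and 1.39 for NDUFA4L2. Against control at 30 min, the same genes lay between -0.02 (ATP5MC1) and 0.18 (ATP5ME), and in each of the 8 all 24 h libraries lay outside the range of the 30 min libraries.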

How the results depend on the processing

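The 10 counts and medians for the subunits and the fold changes of the named genes were recomputed under 19 alternatives, and the counts also at other folds. The replicate block left the calls at 5 lower and 1 higher against control and gave 44 lower by adjusted p, with a median of -0.19 at 24 h; libraries of the same number did not deviate together (correlations -0.22 to 0.12). At 24 h against control, 3 members were called lower with limma on log2(FPKM + 1) and 0 at a 2-fold and 34 at a 1.2-fold threshold, with 3 to 5 when a library was left out. Called higher were 0 with a mean FPKM above 5, which drops NDUFA4L2, and 2 at 1.2-fold. By adjusted p alone, 7 and 7 were higher with limma on log2(FPKM + 0.1) and log2(FPKM + 1) and 1 with no filter, with 1 to 5 when a library was left out. At 24 h against 30 min, 4 and 3 were called lower with limma at the smaller and larger pseudocount, 0 at 2-fold and 45 at 1.2-fold, and 0 higher with a mean FPKM above 5. The cause was not tested. Of the named fold changes, 847 kept their direction and side of the adjusted p threshold, and 22 near 0 changed sign. In the same direction, 28 lost and 12 gained an adjusted p below 0.05. The 1.5-fold threshold was not part of this tally. NDUFA5, NDUFB10 and NDUFV2 thus count as kept, although each fell under that fold in some settings. An adjusted p below 0.05 was lost for ATP5F1C (11 of 19), SDHA (7), SDHD (6) and COX8A (4). It was gained for ATP5PD (7), COX6B1 (3) and COX6A1 (2). The values that changed sign were, with limma at the smaller and larger pseudocount, library totals alone and a mean FPKM above 5, 0.0207, 0.0199, 0.0177 and 0.0241 for ATP5F1E and 0.0192, 0.0187, 0.0193 and 0.0259 for NDUFA4. With no filter they were -0.0386 for COX7A2L, -0.00569 for COX8C, -0.0228 for SDHC and -0.0627 for NDUFS7, which was -0.00385 with DESeq2 and -0.00384 with its size factors. With a library left out, the ranges were -0.091 to 0.0268 for ATP5F1E, -0.0585 to 0.00409 for NDUFA4, -0.0325 to 0.0607 for COX7A2L and -0.0588 to 0.102 for NDUFS7. Depth limits NDUFA7 (507 counts over the 9 libraries) and NDUFA4L2 (1304) most, which had the fewest counts and the largest standard errors.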
